A study of Drosophila melanogaster with 2 samples.

Results

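The Cpr genes encode cuticle proteins of Drosophila melanogaster that carry the Rebers-Riddiford chitin-binding consensus, and each is named after the band of the polytene chromosome where it lies. Members were the protein-coding genes of the dm6 annotation whose symbol is Cpr followed by a digit, 70 of 13945 genes. A peak was given to the gene whose protein-coding transcription start site (TSS) was nearest to the summit, and the rule itself uses names and positions only. Sites were mapped by chromatin immunoprecipitation and sequencing (ChIP-seq) with an antibody against GFP on whole prepupae, males and females pooled. The animals were transgenic and carried Dachshund (gene dac) fused at its C-terminus to eGFP in both samples, and what drives the transgene is not stated in the labels. The single group held 2 biological replicates, numbered 1 and 3. The labels also give an age that disagrees with the prepupal stage, and it was not used. Per the deposited file descriptions, the authors called peaks with a control library. That library was not analysed here, so how much non-specific recovery remains in the lists cannot be judged. Since whole animals were used, no tissue can be assigned to a peak.

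The insect cuticle is a layered coat of chitin and protein that the epidermis secretes anew at each moult, and pulses of the hormone ecdysone set the time of its synthesis. Proteins with the Rebers-Riddiford consensus bind chitin fibres and differ between soft and hard cuticle. In the prepupa the larval cuticle has hardened into the puparium and the epidermis lays down pupal cuticle. Dachshund is a nuclear protein related to the Ski and Sno family of transcriptional co-regulators and acts in the retinal determination network, in leg segments and in the mushroom bodies.

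The IDR list, which holds the peaks that passed the authors' test of rank agreement between replicates, had 9 peaks at 8 Cpr genes, and the highest lay at Cpr50Ca, Cpr49Ah and Cpr62Bc. The summits of 4 of these 9 peaks are shown with 100 bases to each side, on the plus strand of dm6, as examples of sequence under the family's IDR peaks: that of Cpr62Bc, that of Cpr100A, which has the lowest signal of the 9, and both that hold the letters TGATAC. The higher peaks at Cpr50Ca and Cpr49Ah are not shown. Capitals mark TATAAA and TGATAC, the core bound by the Sine oculis family of homeodomain proteins, on either strand. Those of Cpr66D and Cpr73D hold TGATAC, and in Cpr66D a TATAAA on the opposite strand directly follows it without sharing bases.
Cpr62Bc, chr3L:1844703-1844903, 2719 bp upstream of the TSS: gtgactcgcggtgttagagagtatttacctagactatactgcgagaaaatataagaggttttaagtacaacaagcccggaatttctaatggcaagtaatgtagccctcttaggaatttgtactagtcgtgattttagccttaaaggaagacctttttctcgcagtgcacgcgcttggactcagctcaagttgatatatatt
Cpr66D, chr3L:8641136-8641336, intron, 797 bp downstream of the TSS: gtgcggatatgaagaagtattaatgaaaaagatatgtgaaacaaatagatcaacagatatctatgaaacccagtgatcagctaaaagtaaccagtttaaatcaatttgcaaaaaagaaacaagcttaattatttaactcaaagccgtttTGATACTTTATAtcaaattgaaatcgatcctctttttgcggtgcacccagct
Cpr73D, chr3L:16941353-16941553, 1496 bp downstream of an internal TSS: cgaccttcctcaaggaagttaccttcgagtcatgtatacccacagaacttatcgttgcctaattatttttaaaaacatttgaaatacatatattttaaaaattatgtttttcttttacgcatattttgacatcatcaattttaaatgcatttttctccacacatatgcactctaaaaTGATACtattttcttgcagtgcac
Cpr100A, chr3R:30864436-30864636, 2985 bp upstream of the TSS: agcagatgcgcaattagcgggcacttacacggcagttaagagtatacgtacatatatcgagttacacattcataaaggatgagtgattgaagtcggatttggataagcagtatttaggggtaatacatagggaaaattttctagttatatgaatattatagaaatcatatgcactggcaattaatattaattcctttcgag

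Upstream of their own start, 39 of the 70 Cpr genes (55.7%) carried the TATA box letters TATAAA on the gene strand, beginning between 45 and 20 bases before the outermost annotated TSS, against 8.81% of all 13945 genes and 4.66% of the 2406 genes with an IDR peak. Shown are the core promoters of the 4 Cpr genes with an IDR peak that carry TATAAA at that place. They run from 60 bases before to 19 after the start, on the strand of the gene, with TATAAA in capitals. The other genes with an IDR peak, Cpr50Ca, Cpr49Ah, Cpr62Ba and Cpr73D, carry none there and are not shown. Bases are from the dm6 reference assembly.
Cpr62Bc, chr3L:1842065-1842144, minus strand, TATAAA 23 bases before the start: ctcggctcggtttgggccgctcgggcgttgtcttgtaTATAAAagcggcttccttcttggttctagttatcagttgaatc
Cpr66D, chr3L:8640379-8640458, plus strand, 27 bases before the start: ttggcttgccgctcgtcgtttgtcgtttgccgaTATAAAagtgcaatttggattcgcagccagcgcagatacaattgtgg
Cpr76Ba, chr3L:19518313-19518392, minus strand, 27 bases before the start: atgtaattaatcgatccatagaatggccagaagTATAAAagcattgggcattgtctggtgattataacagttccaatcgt
Cpr100A, chr3R:30867461-30867540, plus strand, 25 bases before the start: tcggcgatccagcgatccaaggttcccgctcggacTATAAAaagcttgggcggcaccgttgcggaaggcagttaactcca

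TATAAA occurred at like shares in Cpr genes with and without a relaxed peak. At that place it was found in 4 of the 8 genes with an IDR peak. It was found in 15 of the 25 genes (60%) with a peak in the relaxed pooled list, the authors' longer list before the IDR threshold, and in 24 of the 45 genes (53.3%) without such a peak. Across the window from 250 bases before to 49 after the start, on either strand, TATAAA was in 49 Cpr promoters (70.0%) and in 45.8% of all promoters. The initiator letters TCAGT were searched on the gene strand, from 6 before to 4 after the start. They were in 4 Cpr promoters (5.71%) against 10.5% of all. Among genes with an IDR peak they were in 0 of 8 Cpr promoters, beside 13.9% of all such genes. The 4 were among the 45 genes without a pooled peak, with 0 among the 25 with one, but 2 of the 4 had a peak in replicate 1. With so few matches nothing is read from these counts. The letters GAGAGAG, which GAGA factor binds, were in 1 Cpr promoter (1.43%) against 5.87% of all promoters. That promoter belonged to a gene with an IDR peak, so among such genes the share was 1 of 8 (12.5%), beside 10.7%. A match describes letters in a window and does not show that a factor is there.

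Of the 70 Cpr genes, 8 had an IDR peak (11.4%, 95% Wilson interval 5.91 to 21.0), while the background over all genes was 17.3%. With the summit within 1000 bp of the TSS there were 4 (5.71%) with an interval of 2.24 to 13.8, beside a background of 11.2%. The relaxed pooled list, 30000 peaks called on both replicates together, had 69 peaks at 25 Cpr genes (35.7%, interval 25.5 to 47.4), beside a background of 46.6%. In that list 19 members had a summit within 1000 bp (27.1%, interval 18.1 to 38.5), beside 34.7% of all genes. The intervals cover counting error only. They take the genes as independent, which neighbouring members of a cluster are not. Each of these shares was below the background, but each interval contained it. Under some of the other rules given below, the interval lay below the background. The lengths of sequence that go with the counts are given with the territories below.

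The relaxed lists of the single replicates gave similar counts. Replicate 1 had 74 peaks at 33 members (background 50.6%), and replicate 3 had 69 peaks at 27 members (background 49.3%). In both lists 22 members had a peak, beside a background of 36.9%. Cpr92A was the only one of these 22 without a pooled peak. A further 11 had a peak in replicate 1 and not in replicate 3 (Cpr49Aa, Cpr49Ac, Cpr49Ad, Cpr50Cb, Cpr56F, Cpr62Bb, Cpr67Fa1, Cpr67Fa2, Cpr72Eb, Cpr78Cb and Cpr78E), and 5 the reverse (Cpr5C, Cpr64Ad, Cpr65Eb, Cpr72Ea and Cpr97Eb). The pooled list added Cpr67Fb, which had no peak of its own in either replicate. No relaxed list, pooled or single, held a peak for 31 members (44.3%), beside a background of 36.0%. They were all 7 members at 65A, 5 of 7 at 47E (Cpr47Ea, Cpr47Eb, Cpr47Ee, Cpr47Ef and Cpr47Eg), 3 of 4 at 64A, Cpr49Ab, Cpr49Af and Cpr49Ag, Cpr76Bb and Cpr76Bd, Cpr78Ca and Cpr78Cc, Cpr72Ec, and Cpr11A, Cpr11B, Cpr23B, Cpr30B, Cpr30F, Cpr57A, Cpr60D and Cpr67B. At a q-value of 0.05 or less the lists kept 6 members in replicate 1 (8.57%, interval 3.99 to 17.5, background 19.3%). They kept 17 in replicate 3 (24.3%, interval 15.8 to 35.5, background 36.4%). In the pooled list they kept 13 (18.6%, interval 11.2 to 29.2, background 27.9%). In the single replicates the interval lay below the background, and in the pooled list it contained the background. Neighbouring members are not independent, so this is a description and not a test. Replicate 3 had more peaks at that q genome-wide, 13828 against 5282, so the counts of the replicates at a fixed q cannot be set against each other.

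Cpr50Ca (FBgn0033867, 2R, 13769915 to 13787802, plus strand) had the highest signal of the family and was the only member with 2 IDR peaks. Its promoter peak, at 13769512 to 13769678, had a signal of 272.3 and its summit 322 bp upstream of the TSS. It ranked 964 of 30000 in the pooled list, 1867 in replicate 1 and 717 in replicate 3. The other peak, at 13768449 to 13768633 and 1383 bp upstream, had a signal of 197.6 and ranked 1682 in the pooled list, 6174 in replicate 1 and 1096 in replicate 3. The TSS of the next gene, S-Lap7, was 10652 bp from the first summit. Both peaks thus lay in the upstream region of Cpr50Ca, and both ranked higher in replicate 3 than in replicate 1.

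Cpr49Ah (FBgn0033731, 2R, 12413962 to 12415170, plus strand) had an intergenic peak at 12413118 to 12413527, 639 bp upstream of the TSS, with a signal of 217.1. It ranked 1468 in the pooled list, 1336 in replicate 1 and 1705 in replicate 3. Cpr62Bc (3L, 1840281 to 1842084, minus strand) had an intergenic peak at 1844598 to 1845007, whose bases are shown above, with a signal of 162.8. It ranked 2294, 1881 and 3174 in the pooled list and in replicates 1 and 3. These 2 genes, with Cpr50Ca and Cpr73D, were the members found among the 4137 highest peaks of each replicate alone.

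Cpr73D (3L, 16939100 to 16957689, minus strand) is, with Cpr50Ca, among the few long genes of the family, and its intron peak lay at 16941248 to 16941657. The signal was 119.9, with rank 3632 in the pooled list, 3854 in replicate 1 and 3936 in replicate 3. The summit was 1496 bp downstream of the nearest TSS of the gene and far from its outermost start. The 3 ranks lay close together.

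At the other 4 genes the peak ranked lower in replicate 1 than in replicate 3. Cpr76Ba (3L, 19517552 to 19518332, minus strand) had a peak beyond its 3′ end, at 19516510 to 19516919 and 1617 bp downstream of the TSS, with a signal of 142.7 and ranks 2792, 5719 and 2180 in the pooled list and in replicates 1 and 3. Cpr66D (3L, 8640439 to 8643584, plus strand) had an intron peak at 8641031 to 8641440 with a signal of 124.9, and its ranks in the same order were 3425, 10959 and 3143. Cpr62Ba (3L, 1824129 to 1831783, minus strand) had a peak at 1829548 to 1829957, in its own intron and 811 bp upstream of its inner TSS, with a signal of 117.7 and ranks 3728, 7308 and 3034. At Cpr100A (3R, 30867521 to 30869184, plus strand) the peak lay at 30864331 to 30864740 with a signal of 117.3 and ranks 3754, 5463 and 3547. In replicate 1 these peaks had q-values from 0.0554 at Cpr100A to 0.332 at Cpr66D, and in replicate 3 all were at the smallest q of the list. So none of these 4 reached q of 0.05 in replicate 1 alone, nor did the second peak of Cpr50Ca (q = 0.0935).

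**Figure D1:**
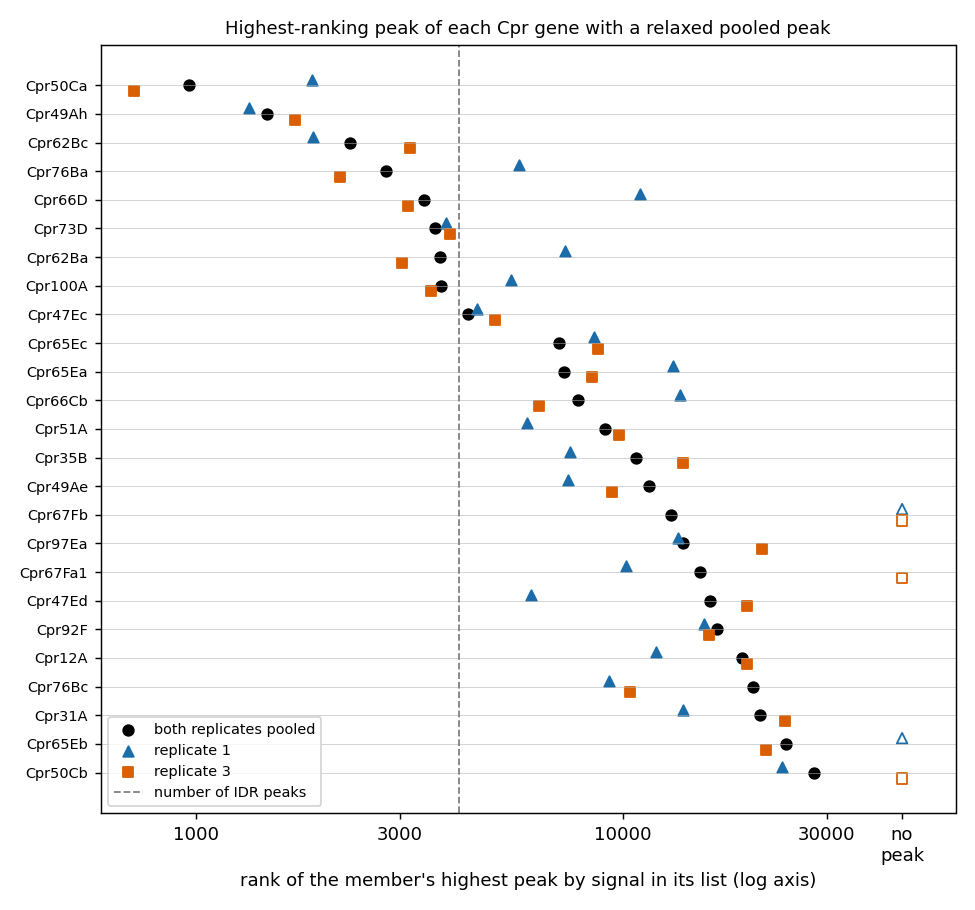
Rank by signal (log axis, 1 is the highest of 30000) of the highest peak of each of the 25 Cpr genes with a relaxed pooled peak, in the pooled list (circles), replicate 1 (triangles) and replicate 3 (squares). Open symbols at the right stand for no peak, and the dashed line marks rank 4137, the size of the IDR list. The 8 genes left of the line in the pooled list are those with an IDR peak, and 4 of them lie right of it in replicate 1.

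Next below the IDR list came Cpr47Ec, with a pooled signal of 106.2 beside 109.8 for the lowest IDR peak. Its peak lay 908 bp downstream of the TSS and ranked 4334 in the pooled list, 4555 in replicate 1 and 5029 in replicate 3, closer together than the ranks of several IDR peaks. Cpr72Eb had a peak among the 4137 highest of replicate 1 only. That peak ranked 3663 (signal 50.41, q = 0.00751), lay 542 bp upstream of the TSS and overlapped no pooled peak. The 4 genes found among the highest 4137 of replicate 3 only were Cpr76Ba, Cpr66D, Cpr62Ba and Cpr100A. By this rule 5 members were called in replicate 1 (7.14%, interval 3.09 to 15.7, background 16.6%). In replicate 3 there were 8 (11.4%, interval 5.91 to 21.0, background 18.0%), with 4 in common. The interval of replicate 1 lay below its background, and that of replicate 3 contained its background. This too is a description and not a test.

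Below Cpr47Ec the family's relaxed peaks were weak. The next genes were Cpr65Ec (signal 74.57), Cpr65Ea (73.09), Cpr66Cb (69.31) and Cpr51A (62.36), each with its highest summit between 947 and 3192 bp upstream of the TSS. Within 1000 bp of the TSS the highest signals after these belonged to Cpr49Ae (51.54), Cpr67Fb (48.34), Cpr97Ea (46.4), Cpr67Fa1 (43.69) and Cpr47Ed (42.16). Cpr92F and Cpr76Bc followed, with signals of 36.55 and 35.84. The other members of the pooled list were Cpr35B, Cpr12A, Cpr31A, Cpr65Eb and Cpr50Cb, with highest signals from 55.15 at Cpr35B to 27.82 at Cpr50Cb. The median signal of the family's 69 pooled peaks was 40.83, beside 43.89 over all 30000, and for the 9 IDR peaks it was 142.7 beside 172.4 over all 4137. The highest signal in the IDR list was 2090, so even Cpr50Ca stood far below the strongest sites of the genome.

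Some members had several peaks, most of them weak. Cpr92F had 7 in the pooled list, Cpr35B and Cpr62Ba had 6 each, and Cpr51A and Cpr100A had 5 each. Those of Cpr62Ba and Cpr100A include their IDR peak. Some summits of Cpr62Ba lay inside another gene, GV1, from 6226 to 7522 bp downstream of the nearest Cpr62Ba TSS. At Cpr92F none was above a signal of 41, and its nearest IDR summit was 74935 bp away, the longest distance in the family. At Cpr35B the 6 peaks were spread from 12747 bp upstream to 2896 bp downstream of the TSS. Some of the 69 peaks overlap each other, and joining those leaves 59 stretches of the genome.

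Of the 69 pooled peaks, 41 (59.4%) overlapped a peak in both replicates, beside 56.7% of all pooled peaks, while 13 overlapped a peak in replicate 1 only, 12 in replicate 3 only and 3 in neither. Over those 41 the Spearman correlation between the ranks in the replicates was 0.676. It is a description over peaks of the same libraries, some of which share a replicate peak. The share seen in both replicates was close to that of all pooled peaks.

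In the IDR and pooled lists few of the family's summits lay right at the TSS. More of its pooled summits than of all pooled summits lay within 1000 bp, which was so in replicate 1 but not in replicate 3. None of the 9 IDR summits was within 200 bp of the TSS, where 21.9% of all IDR summits lay, and 1 was within 500 bp, beside 35.2% of all. Within 1000 bp the share was 44.4% against 45.3%. Of the 69 pooled summits 4 (5.8%) were within 200 bp, beside 12.7% of all, 12 (17.4%) within 500 bp, beside 21%, and 26 (37.7%) within 1000 bp, beside 29.7%. The median distance was 1463 bp, beside 3021 bp over all pooled peaks, and the short territories of Cpr genes limit how far an assigned summit can lie. Upstream of the TSS lay 43 of them and downstream 26. By annotation 39 were intergenic, 13 in promoters (within 500 bp of a TSS), 13 in introns, 2 in coding sequence and 2 in UTRs. The summits inside the member's own gene numbered 17, those inside another gene only 4, and those outside any gene 48. Of the family's summits in replicate 1, 8.11% lay within 200 bp, beside 9.55% of all, and 37.8% within 1000 bp, beside 27%. In replicate 3 the shares were 7.25% beside 16.1% within 200 bp, and 33.3% beside 33.8% within 1000 bp.

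**Figure D2:**
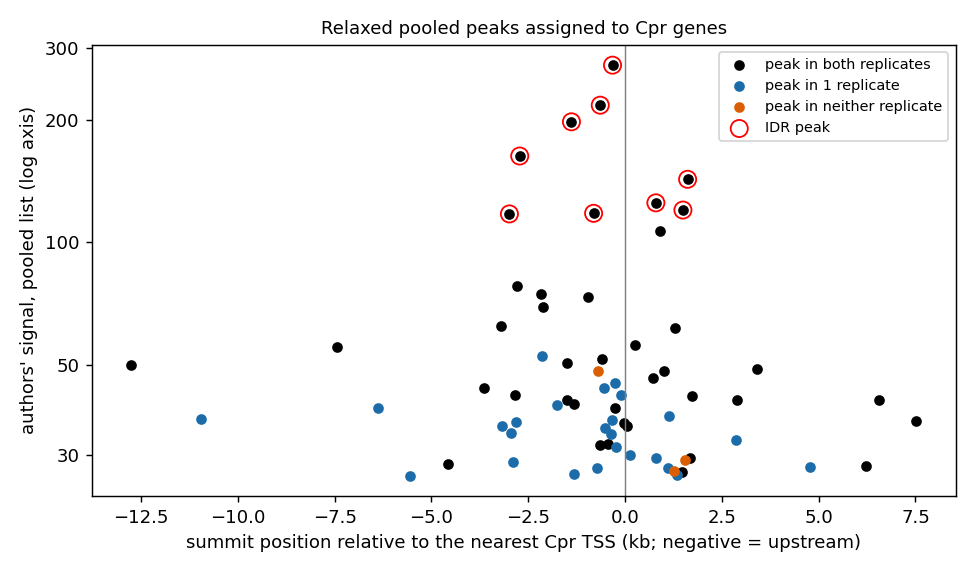
Position of the 69 relaxed pooled summits relative to the nearest Cpr TSS (kb, negative is upstream) and the authors' signal (log axis). Colours show whether a peak overlapped a peak in both replicates (41), in 1 (25) or in neither (3), and red rings mark the 9 IDR peaks, all of which overlapped a peak in both replicates and lay between 2985 bp upstream and 1617 bp downstream.

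Cpr genes are short and lie close together, so each has little sequence that could be assigned to it. The median gene length was 1094 bp, beside 2166 bp over all genes. The territory, which is the gene body plus the way to the midpoints with the neighbours' TSSs, had a median of 3364 bp in the family and 5204 bp over all genes. All genes were split by territory into 4 groups of like size. In the group with the shortest territories (400 to 2666 bp) lay 27 members, 0 of them with an IDR peak, beside a background of 6.83% in that group. In the next group 1 of 15 had an IDR peak (background 9.15%), then 4 of 22 (background 18.3%), and in the group of the longest territories 3 of 6 (background 34.7%). In the pooled list the counts were 3 of 27 (background 19.6%), 5 of 15 (background 32.8%), 12 of 22 (background 52.4%) and 5 of 6 (background 81.8%). In every group the number of members was small and the counts were near the background of genes with like territories, so nothing is read from them. Per length, the stretches nearest to Cpr TSSs (347.5 kb, 0.263% of the total) held 25.9 IDR peaks per Mb, beside 31.4 over all genes. The pooled density was 199 per Mb beside 227.

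**Figure D3:**
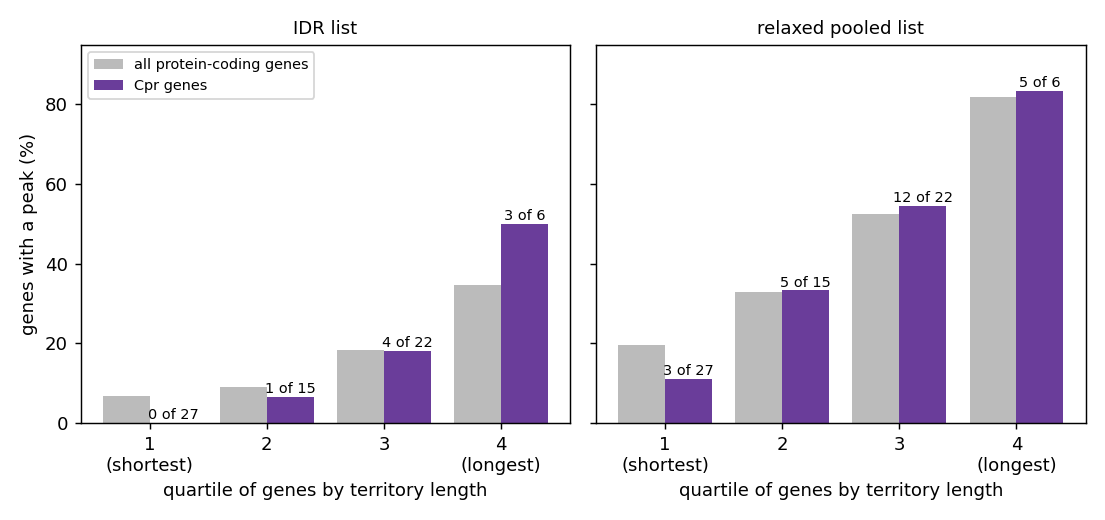
Share of genes with a peak (%) in the IDR list (left) and the relaxed pooled list (right), for all protein-coding genes (grey) and Cpr genes (purple) in 4 groups of territory length (the 4 quartile bins on the x axis). Labels give the number of Cpr genes with a peak of the number in the group, from 0 of 27 to 3 of 6 on the left. Both sets rise with territory length, and in the shortest group the Cpr genes stand at 0% and 11.1%, beside 6.83% and 19.6% of all genes.

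Measured without assigning peaks to genes, IDR summits were far from most Cpr genes. The median distance from a Cpr TSS to the nearest IDR summit was 18570 bp, with a range from 322 to 74935 bp, beside a median of 10660 bp over all genes. An IDR summit lay within 1000 bp of a TSS for 4 members (5.71%, background 15.1%) and within 5000 bp for 12 (17.1%, background 32.0%). Within 10000 bp there were 19 (27.1%, background 48.2%) and within 20000 bp 37 (52.9%, background 68.2%). With the gene body and 5000 bp to each side in place of the TSS, 14 members had an IDR summit (background 37.6%). Neighbouring members share these distances, so the 70 values are not independent.

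The members lie on 2L (5), 2R (21), 3L (35), 3R (5) and X (4), in 33 bands, of which 21 hold 1 member. Of the 21 members on 2R, 2 had an IDR peak, of the 35 on 3L 5, and of the 5 on 3R 1, while the 5 on 2L and the 4 on X had none. Over all genes the share was 21.4% for X, 17.3% for 3L, 16.7% for 3R, 16.6% for 2L and 15.4% for 2R, and with so few members per arm nothing is read from the counts. The clusters held few peaks. At 65A, 7 Cpr genes lie in 30.35 kb of 3L among 11 other coding genes, 10 of them Lcp65A or Acp65A cuticle genes, and no IDR or pooled summit lay in that stretch, with 1 summit in each replicate's relaxed list. The nearest IDR summits were 24292 to 45095 bp from its members. The 4 genes at 64A, the 3 at 72E and the 3 at 78C had no IDR or pooled summit between them either, though the relaxed list of replicate 1 had 1 at 72E and 2 at 78C.

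At 47E, 7 members in 26.7 kb had 0 IDR and 3 pooled summits, with Cpr47Ec and Cpr47Ed as the members concerned. The 38.55 kb of 49A, with 8 members, held 1 IDR summit, that of Cpr49Ah at the edge of the cluster, and 6 pooled summits, some nearest to other genes. At 65E all 3 members had a pooled peak and none an IDR peak, and the nearest IDR summit was at least 41029 bp away. At 62B, in contrast, 2 of 3 members had an IDR peak, and at 76B 1 of 4 did.

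**Figure D4:**
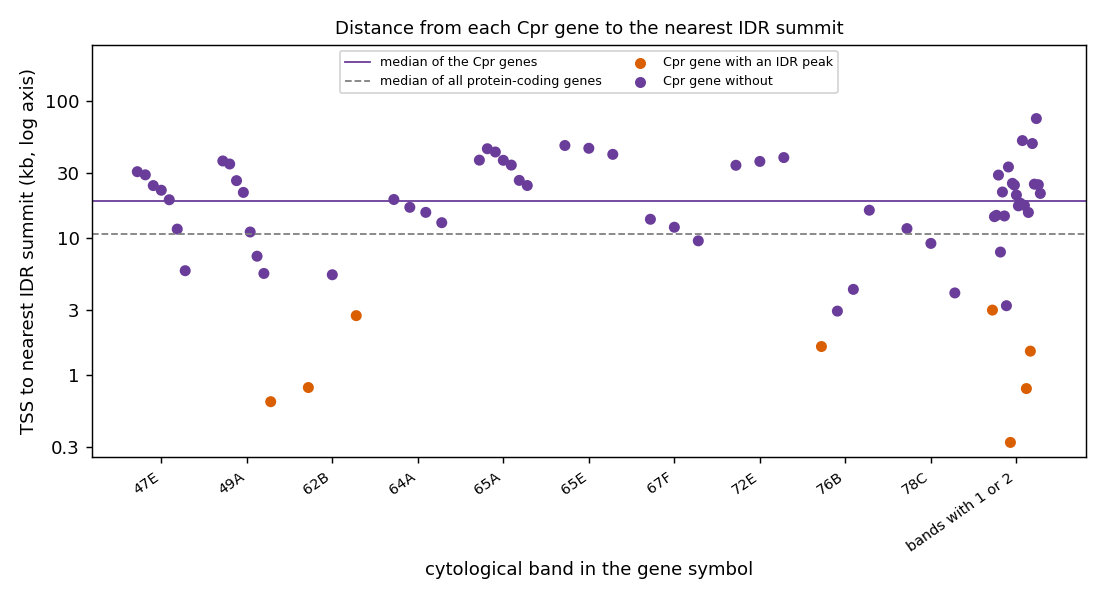
Distance from the TSS of each of the 70 Cpr genes to the nearest IDR summit (kb, log axis) by the band in its symbol, with bands of fewer than 3 members together at the right. Orange points are the 8 genes with an IDR peak, and the lines are the medians of the Cpr genes (18570 bp, solid) and of all genes (10660 bp, dashed). The points of 65A, 65E and 72E all lie above both medians.

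The Rebers-Riddiford consensus comes in forms that are associated with soft cuticle (RR-1) and hard cuticle (RR-2). Translated coding sequences were searched for the core of the consensus with a spacer of 3 residues, as in RR-1, or 4, as in RR-2. The short spacer was found in 44 members, the long spacer in 21, both in 4 and neither in Cpr62Ba. This is a pattern in letters and not a curated class, and it is not specific to the family, since over all genes the short spacer alone was found in 384 and the long alone in 352. An IDR peak was found at 2 of the 44 short-spacer genes (Cpr49Ah and Cpr100A), 3 of the 21 long-spacer genes (Cpr62Bc, Cpr66D and Cpr76Ba), 2 of the 4 genes with both (Cpr50Ca and Cpr73D), and Cpr62Ba. In the pooled list the counts were 12 of 44, 9 of 21, 3 of 4 and 1 of 1. The shares over all genes were 17.3% and 46.6%. Short-spacer genes had the shorter territories, with a median of 2683 bp beside 6518 bp for long-spacer genes, and the part of territory in these counts was not tested.

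Around the summits, 100 bases to each side, the windows were searched on both strands for 5 sets of letters. TGATAC was in 2 of the 9 IDR windows, the ones of Cpr66D and Cpr73D shown above, beside 6.33% of all IDR windows, and in 9 of the 69 pooled windows (13.0%) beside 4.74%. GAGAGAG was in 0 of 9 beside 5.51%, and in 1 of 69 (1.45%) beside 4.77%. CAGCTG, an E-box, was in 0 of 9 beside 7.83%, and in 7 of 69 (10.1%) beside 8.96%. AGGTCA, the half-site of nuclear receptors, was in 1 of 9 beside 3.63%, and in 4 of 69 (5.8%) beside 3.84%. TATAAA was in 4 of 9 beside 32.4%, and in 19 of 69 (27.5%) beside 24%. Windows that overlap share bases, and with 9 windows a single match moves a share by much.

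Other genes of cuticle formation were counted in the same way, in lists chosen by symbol. Of 27 further genes of the Rebers-Riddiford type that do not have Cpr names, among them the Lcp and Ccp84A genes, Pcp, Edg78E, Edg84A and resilin, 0 had an IDR peak and 0 a pooled peak. Their median territory was 1651 bp and their median distance to an IDR summit 31430 bp. An IDR summit lay within 5000 bp of a TSS for 2 of them, Pcp (2527 bp) and resilin (4135 bp), but was nearer to the TSS of another gene. Of 25 Tweedle genes, which encode another family of structural cuticle proteins, 0 had an IDR peak and 3 a pooled peak, with a median territory of 2588 bp. Over all genes the IDR shares were 17.3% in all and 6.83% in the group with the shortest territories. The pooled shares were 46.6% in all and 19.6% in that group. Both lists also hold genes with territories above the 2666 bp limit of that group, so it is not a like background. The part of territory in these counts was not tested.

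Among 9 genes with peritrophin-type chitin-binding domains, Gasp (highest signal 124.4) and obst-B (118.4) had an IDR peak. Of 17 genes for chitin synthesis, assembly and breakdown 2 did, the chitinase gene Cht7 (485) and mmy (186.2), which encodes the enzyme that makes UDP-N-acetylglucosamine for chitin. Of 8 tanning genes 3 had an IDR peak, with a highest signal of 683.8 at speck, which encodes arylalkylamine N-acetyltransferase, 348.5 at y (yellow, needed for black melanin) and 123.3 at t (tan). The shares with an IDR peak were 22.2%, 11.8% and 37.5% in these lists, in the order given, beside 17.3% of all genes. Their median territories were 2220, 6902 and 9270 bp, beside 3364 bp for the Cpr genes. The signals at speck, y and Cht7 were above the highest of the Cpr family, and the part of territory in these values was not tested.

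Regulators of cuticle genes, mostly of the ecdysone cascade, had an IDR peak at 12 of 13 and a pooled peak at all 13. The highest signals were 679 at Hr4, 634.7 at Eip75B, 487.4 at Eip74EF and 294.9 at Hr3, transcription factor genes of the ecdysone response. The exception in the IDR list was br (broad), named after its values were seen, with 26 pooled peaks. An IDR summit lay 3436 bp from a br TSS, but was nearer to the TSS of another gene. The median territory of the 13 regulators was 45820 bp, far longer than the 3364 bp of the Cpr genes. The part of that length in the counts was not tested. In the group of genes with the longest territories the shares over all genes were 34.7% in the IDR list and 81.8% in the pooled list. The lists were chosen with earlier results of these data known, and no contrast between them was tested.

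**Figure D5:**
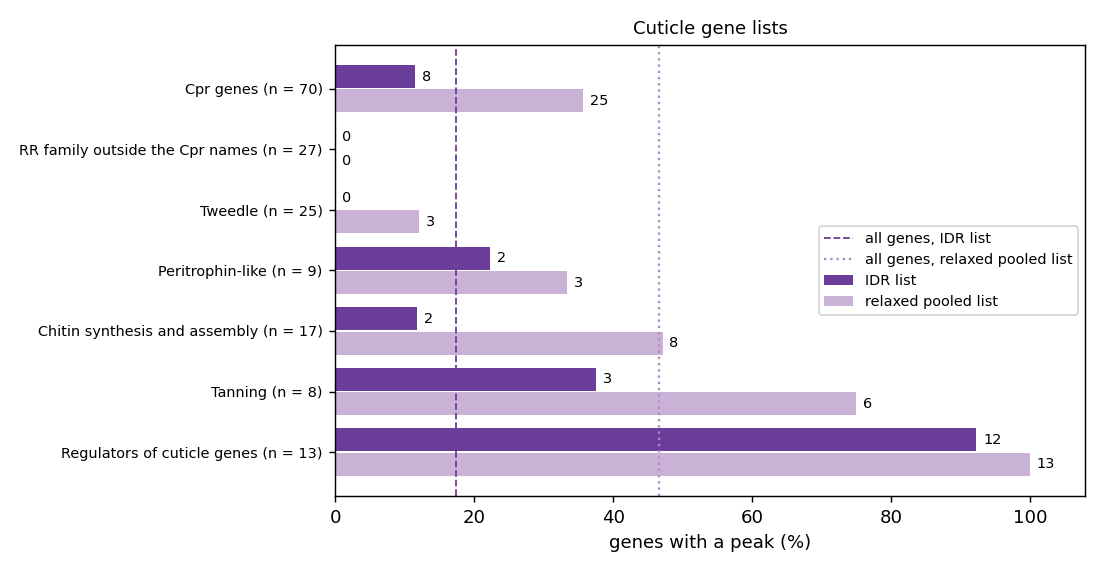
Share of genes with a peak (%) in the IDR list (dark) and the relaxed pooled list (light) for the Cpr genes and 6 other cuticle lists, with the number of genes with a peak beside each bar. Vertical lines mark the share over all protein-coding genes, 17.3% and 46.6%. The regulators stand at 12 and 13 of 13, and the 27 further Rebers-Riddiford genes at 0 in both.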

How the data were processed

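Anti-GFP ChIP-seq of 2 biological replicates was analysed from the authors' deposited dm6 peak lists, namely 1 relaxed list per replicate, 1 for both pooled and 1 thresholded by irreproducible discovery rate (IDR). Per the labels, chromatin was sonicated to 200 to 800 bp. Per the deposited file descriptions, peaks were called with a control library, which was not analysed here. Peak signal is the authors' own value on a scale they do not state, so lists were compared by rank. The authors deposited q-values as −log10 q, capped in each list. The sources used here do not name the aligner, the caller, their versions or the IDR threshold. Read depth is unknown. The dm3 copies were not used.

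Genes came from Ensembl release 115 and bases from the RefSeq copy of the dm6 assembly. A peak was assigned by its summit to the nearest protein-coding TSS (Python 3.11.15, pandas 2.3.3), and overlap between lists needed 1 bp. The assignment was tested on simulated data. Cpr57A shares a TSS with another gene. With 1 group there was no comparison between groups and no test. Members, lists and motifs were chosen with earlier results of these data known. Of the listed symbols, Lac2, Dat and AANAT1 are older names of genes in the tanning list (stw for Lac2, speck for the others), and the pattern Cpap matched no symbol. Named genes were all members with an IDR peak, the members nearest the 10 highest pooled peaks, up to 15 with a pooled summit within 1000 bp, those called in only 1 replicate, the 5 with most pooled peaks and up to 4 per other list, with br added afterwards.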

Additional observations from a re-analysis of the deposited data

How the results depend on the processing

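The count of Cpr genes with an IDR peak was 8 also with peak midpoints and with TSSs of non-coding RNA genes, and the count of IDR peaks stayed at 9 under both. With as many of the highest peaks of replicate 1 alone, 5 genes and 5 peaks were found (7.14% of members, beside 16.6% of all genes). With those of replicate 3 alone, 8 genes and 9 peaks were found (11.4%, beside 18.0%). IDR peaks above the median signal of the list gave 2 genes and 3 peaks, beside 10.5% of all genes. Pooled peaks at q of 0.05 or less gave 13 genes and 15 peaks, beside 27.9% of all genes, and a summit within 1000 bp of the TSS 4 genes and 4 peaks, beside 11.2%. Counting summits inside the gene or up to 5000 bp away gave 14 genes, beside 37.6% of all genes. These came from 11 peaks, since neighbouring members can count the same summit.

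The pooled list gave 25 genes and 69 peaks (35.7% of members, beside 46.6% of all genes). Replicate 1 gave 33 genes and 74 peaks (47.1%, beside 50.6%), and replicate 3 gave 27 genes and 69 peaks (38.6%, beside 49.3%). Counting pooled summits inside the gene or up to 5000 bp away gave 37 genes and 97 peaks (52.9%, beside 71.8%). At q of 0.05 or less there were 13 genes and 15 peaks, and among the 10000 highest pooled peaks 13 genes and 16 peaks, beside 29.1% of all genes. The 19 genes with a pooled summit within 1000 bp (27.1%, beside 34.7% of all) became 6 (8.57%) at that q and among the 10000 highest. The shares of all genes there were 19.6% and 20.6%. In single replicates they were 20 in replicate 1 (28.6%, beside 34.7% of all) and 16 in replicate 3 (22.9%, beside 39.3% of all). The stricter settings hold fewer peaks, and why the members fell by more than all genes did was not tested. No paired analysis was possible because there is 1 group. Read depth is unknown, a gene without a peak may hold sites below the lists' limits, and nearest-TSS assignment does not show which gene a site acts on.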
